A study of Arabidopsis thaliana with 9 samples.

Results

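The NDR1/HIN1-like and late embryogenesis abundant (LEA) hydroxyproline-rich glycoprotein genes of Arabidopsis thaliana were taken as every gene whose deposited description named either family, with NDR1 and NHL3 included by locus. The rule found 43 of 33610 genes, of which 7 were described as NDR1/HIN1-like and 36 as LEA hydroxyproline-rich, NDR1 itself among the latter. Messenger RNA was measured in detached, uninfected rosette leaves of 30-day-old plants in 9 libraries. There were 3 libraries of Col-0, the wild type (WT), 3 labelled VQ28KO12, a knock-out line of VQ28 in the labels, and 3 of VQ28OE9, a line labelled as overexpressing VQ28. Each genotype other than WT is 1 line, and its allele, promoter or vector are not named in the sources used here. Nothing tells whether replicate libraries derive from different plants, and p-values therefore reflect library-to-library spread that may be technical.

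VQ motif proteins such as VQ28 are cofactors of WRKY transcription factors, which bind the W box in plant promoters. Most proteins of the NDR1/HIN1-like and LEA hydroxyproline-rich families sit in the plasma membrane or at plasmodesmata through a single membrane segment or a lipid anchor, with a domain shared with the LEA-14 proteins of desiccating tissues. NDR1 is required for resistance triggered by coiled-coil immune receptors such as RPS2 and RPM1 and binds RIN4, the protein those receptors guard. HIN1 was found in tobacco as a gene induced by bacterial harpin, and NHL3 is its pathogen-induced Arabidopsis relative at the plasma membrane.

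NHL3 changed in both comparisons that involve VQ28OE9, where its mRNA was 2.75-fold higher than in WT and 3.67-fold higher than in the libraries labelled VQ28KO12. Both comparisons use the same VQ28OE9 libraries, and the call against WT was lost in 5 of 19 alternative fits. AT1G64065 and AT1G65690 were also higher in VQ28OE9 than in the libraries labelled VQ28KO12. No member passed the test between VQ28KO12 and WT. The other tested members, among them the abundant AT3G52470 and NHL1, did not pass the test in any comparison.

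The upstream sequences of the 3 genes that changed, and of NDR1, are shown because VQ proteins act through factors that read such sequences. Each is the 250 bases before the annotated gene start in the TAIR10.1 genome and annotation (RefSeq), written 5′ to 3′ on the gene's strand. Capitals mark a W box, searched as TTGACC or TTGACT on both strands, so that AGTCAA is the second form read from the other strand.
NHL3 (chr5:1931783-1932032, minus strand): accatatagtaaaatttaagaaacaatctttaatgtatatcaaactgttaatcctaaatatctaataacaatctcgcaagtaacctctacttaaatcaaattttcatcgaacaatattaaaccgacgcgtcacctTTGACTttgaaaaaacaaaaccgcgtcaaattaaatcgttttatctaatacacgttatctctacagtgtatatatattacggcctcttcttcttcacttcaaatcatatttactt
AT1G64065 (chr1:23778005-23778254, plus strand): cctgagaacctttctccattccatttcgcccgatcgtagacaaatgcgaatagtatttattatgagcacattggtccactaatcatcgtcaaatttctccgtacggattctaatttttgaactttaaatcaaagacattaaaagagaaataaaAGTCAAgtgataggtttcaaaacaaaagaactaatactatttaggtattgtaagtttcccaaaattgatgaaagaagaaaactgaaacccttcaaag
AT1G65690 (chr1:24433166-24433415, minus strand): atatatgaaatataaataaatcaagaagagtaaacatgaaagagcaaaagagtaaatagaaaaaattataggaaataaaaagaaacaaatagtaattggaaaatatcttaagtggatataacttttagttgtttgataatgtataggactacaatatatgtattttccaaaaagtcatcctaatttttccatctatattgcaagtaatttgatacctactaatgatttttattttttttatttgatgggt
NDR1 (chr3:7194521-7194770, plus strand): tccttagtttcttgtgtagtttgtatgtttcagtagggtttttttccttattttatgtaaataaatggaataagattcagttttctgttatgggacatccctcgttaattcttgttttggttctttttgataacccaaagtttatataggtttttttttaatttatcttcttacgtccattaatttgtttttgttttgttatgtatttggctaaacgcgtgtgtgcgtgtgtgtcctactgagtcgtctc

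NHL3 and AT1G64065 each held 1 W box, starting 115 and 97 bases before the gene start. AT1G65690 and NDR1 held none in this window, which says only that these letters are not in it. Over the family, 18 of 43 upstream windows held a W box (41.9%), against 28.4% of the windows of 27443 annotated genes. The 18 include members too low to test here. Among these are AT2G35970 and NHL22, whose windows are nearly the same sequence and each overlap another annotated gene. The G box CACGTG stood in 2 of the 43 (4.65%, against 6.49%), and CGCGTT in 3 (6.98%, against 2.59%). The end of CGCGTT can overlap the start of a W box, and both are then counted. A match describes the sequence and shows no binding.

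The genes themselves were short and mostly uninterrupted. In the TAIR10.1 annotation 34 of the 43 had 1 coding exon, against 23.3% of 27444 protein-coding genes, and their coding length ran from 561 to 2067 bases with a median of 684. NHL8 was the exception in length, with 7 coding exons and 2067 coding bases, and the deposited GO terms place it in a ubiquitin ligase complex. The deposited terms put 19 members among components anchored to the plasma membrane and 22 at plasmodesmata, against 0.518% and 2.91% of all genes in the table. Among 903 pairs of members, AT2G35970 and NHL22 were closest, at 98.6% coding identity with a shared run of 213 bases, longer than a 150-base read. Their counts cannot be told apart with certainty, and both stood at or near 0 here. NDR1 shared 77.6% with its neighbour AT3G20590, which had 0 units in every library. NHL12 shared 89.5% with AT2G35970.

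The libraries held 64552605 to 95223547 deposited count units each. About 4 units were taken to make a sequenced fragment, from the excess of multiples of 4 among low values, which no source states. The target gene VQ28, taken as AT4G20000, stood at 6244, 4665 and 5942 FPKM (fragment counts adjusted for gene length and sequencing depth) in VQ28OE9 and at 8.70, 0.456 and 6.72 in WT. The libraries labelled VQ28KO12 gave 8.36, 10.1 and 0 FPKM, so 2 of these 3 lay within or above the WT range despite their label. As the allele is not named, mRNA alone does not tell whether VQ28 protein is lost. On the second principal component of all tested genes, WT 3 and VQ28OE9 3 lay at -33.6 and -37.8, apart from the others at -7.60 to 22.4. The first component (35.5% of the variance) placed VQ28OE9 at -49.3 to -37.9 and VQ28KO12 at 13.3 to 33.4. On it WT 1 and WT 2 lay at 10.25 and 2.45, and WT 3 at 36.5, beyond every VQ28KO12 library. WT 3 also stood apart in AT2G01010, which makes ribosomal RNA (18S), with only 122 units where every other library had 20000 to 77475. The cause was not tested. Markers of mesophyll, the photosynthetic tissue of the leaf, were abundant throughout, at a summed 32872 to 43498 FPKM. Root markers summed to at most 0.0486 FPKM, with 2 of 3 at 0 in every library, and flower markers to at most 0.107.

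In WT leaves the family was led by AT3G52470 (129 ± 40.1 FPKM, SD, n = 3), NHL1 (111 ± 23.3), NHL3 (99.0 ± 30.5) and AT1G17620 (87.6 ± 12.7), whose order is not resolved beyond their spread. They ranked 757, 904, 1010 and 1132 among the 33610 genes of the table. AT3G54200 followed at 32.3 ± 3.32 FPKM and NHL12 at 20.3 ± 1.08, steps larger than the spread. NDR1 was a low member at 4.11 ± 1.06 FPKM, and YLS9, also known as NHL10 and used as a marker of leaf yellowing and of immune signalling, stood at 3.65 ± 0.505. NHL26, which acts at plasmodesmata of phloem companion cells in sugar export, stood at 4.75 ± 1.54. A group of 24 members had a mean of at least 1 FPKM over the 9 libraries and entered the tests.

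Of the other 19 members, 6 had 0 units in all 9 libraries. By counting error alone this allows up to 3 fragments in each, or 12 units at the assumed 4 per fragment. The 6 members were AT1G54540, AT2G35460, AT3G05975, AT3G20590, NHL22 and AT5G21130. The other 13 had units in at least 1 library but averaged under 1 FPKM, and the highest single value among them was 1.95 FPKM in AT1G61760. AT5G22200 had 0 units in all 3 VQ28OE9 libraries, 15, 6 and 15 in WT and 15, 4 and 8 in those labelled VQ28KO12, levels at or near the floor of 12 units.

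**Figure D1:**
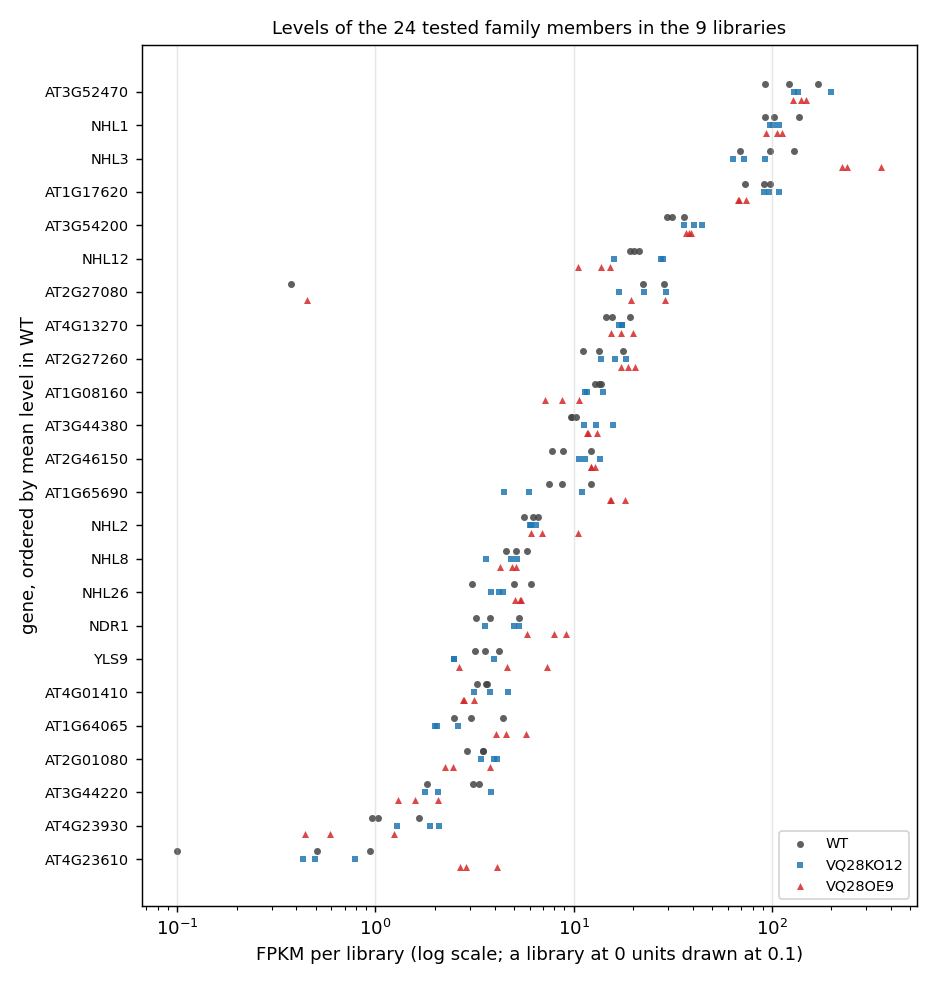
FPKM on a log axis of the 24 tested members in each of the 9 libraries, ordered by the WT mean, with WT as circles, VQ28KO12 as squares and VQ28OE9 as triangles; a library at 0 units is drawn at 0.1. Levels run from AT3G52470 at the top to AT4G23610 at the bottom, and the 3 NHL3 triangles lie to the right of all 6 other NHL3 points.

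The first comparison asked how the family's mRNA differed between VQ28OE9 and WT leaves. By edgeR's quasi-likelihood test with Benjamini-Hochberg adjustment over the 16050 tested genes, 1 of the 24 members changed, against 2.31% of all tested genes. It was higher, as were 1.37% of all genes, and 0 members were lower, against 0.935%. DESeq2 called 4 members, against 8.46% of all genes, and 7 had an unadjusted p under 0.05, against 17.4%. The fitted log2 fold change was above 0 in 14 of the 24 members, against 49.6% of all genes, with a median of 0.11 against 0.00 over all genes and a range of -0.76 to 2.70. The 3 libraries of each genotype did not overlap in 9 members, 6 higher in VQ28OE9 and 3 lower, against 13.0% and 9.24% of all genes. The summed level of the family was 899, 728 and 754 FPKM in VQ28OE9 and 519, 701 and 618 in WT, without overlap. This sum holds NHL3, at 357, 227 and 240 FPKM against 97.7, 130 and 69.2, and does not speak for the other members.

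The member that changed was NHL3 (AT5G06320, chromosome 5, 1930793 to 1931768, minus strand, as the deposited table gives it), whose deposited terms name responses to wounding, bacteria, salicylic acid and hypoxia. The VQ28OE9 libraries gave 357, 227 and 240 FPKM, and those of WT 97.7, 130 and 69.2. Every VQ28OE9 library was above every WT library. NHL3 rose by 1.46 ± 0.26 (SE) on the log2 scale, from 99.0 ± 30.5 to 275 ± 71.6 FPKM (SD, n = 3; edgeR adjusted p = 0.0271). Its share of the family's summed FPKM was 39.7%, 31.2% and 31.9% in VQ28OE9 against 18.8%, 18.6% and 11.2% in WT. The call was lost without VQ28OE9 1 (adjusted p = 0.0899), WT 1 (0.0776) or WT 3 (0.0631), without WT 3 and VQ28OE9 3 together (0.0775), and with the VQ28KO12 libraries left out of the fit (0.0564), at log2 values of 1.21 to 1.46. Over 3 libraries against 3 the exact two-sided permutation test gave 0.1, the smallest p it allows.

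NHL3 overlaps AT5G06310 on the opposite strand by 159 bases, and no source used here states whether the counting used the strand. AT5G06310 had 11 to 162 units in any library. TAIR10.1 also places an antisense transcript, AT5G01255, within NHL3, whose reads cannot be told apart without strand.

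NDR1 (AT3G20600, chromosome 3, 7194846 to 7195736, plus strand) stood at 9.22, 7.97 and 5.86 FPKM in VQ28OE9 and at 3.80, 5.29 and 3.23 in WT. All 3 VQ28OE9 values lay above the WT values, but the fitted difference of 0.88 ± 0.26 on the log2 scale did not pass the test (edgeR adjusted p = 0.111). DESeq2 called it (adjusted p = 0.0258), and over all alternatives its adjusted p ran from 0.0258 to 0.327. AT1G65690, whose deposited terms name osmotic stress and abscisic acid, reached 15.5, 15.2 and 18.3 FPKM, where WT gave 8.73, 12.2 and 7.56. Its libraries did not overlap either, and its difference of 0.76 ± 0.31 did not pass the test (edgeR adjusted p = 0.234). YLS9 overlapped between the genotypes, at 7.37, 4.62 and 2.64 FPKM in VQ28OE9 and 3.57, 4.19 and 3.19 in WT.

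AT4G23610, an LEA hydroxyproline-rich member with no process term in the deposited table, had the largest fitted difference of the family and is named here after its values were seen. It had 239, 180 and 171 units in VQ28OE9 and 30, 53 and 0 in WT, or 4.11, 2.86 and 2.69 FPKM against 0.509, 0.940 and 0. The VQ28OE9 libraries lay above all others, and the fitted log2 difference was 2.70 ± 0.83, not past the test (edgeR adjusted p = 0.122). DESeq2 (adjusted p = 0.0177) and limma on log2(FPKM + 1) (0.0157) called it, and its adjusted p ran to 0.294 over the alternatives. It overlaps AT4G23620 on the opposite strand by 247 bases, a gene with 320 to 507 units in the 9 libraries, and TAIR10.1 also places AT4G07165 there.

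On the lower side, AT1G08160 stood at 8.72, 10.7 and 7.16 FPKM in VQ28OE9 and at 13.5, 12.9 and 13.7 in WT. NHL12 stood at 15.3, 13.7 and 10.6 FPKM against 21.3, 20.3 and 19.2. Neither overlapped between the genotypes, and neither passed the test, with log2 differences of -0.62 ± 0.17 (edgeR adjusted p = 0.0855) and -0.64 ± 0.22 (0.156). AT1G08160 was called by DESeq2 (adjusted p = 0.0144). AT4G01410 was the other member with lower, non-overlapping libraries, at 2.91 ± 0.204 FPKM against 3.50 ± 0.214.

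**Figure D2:**
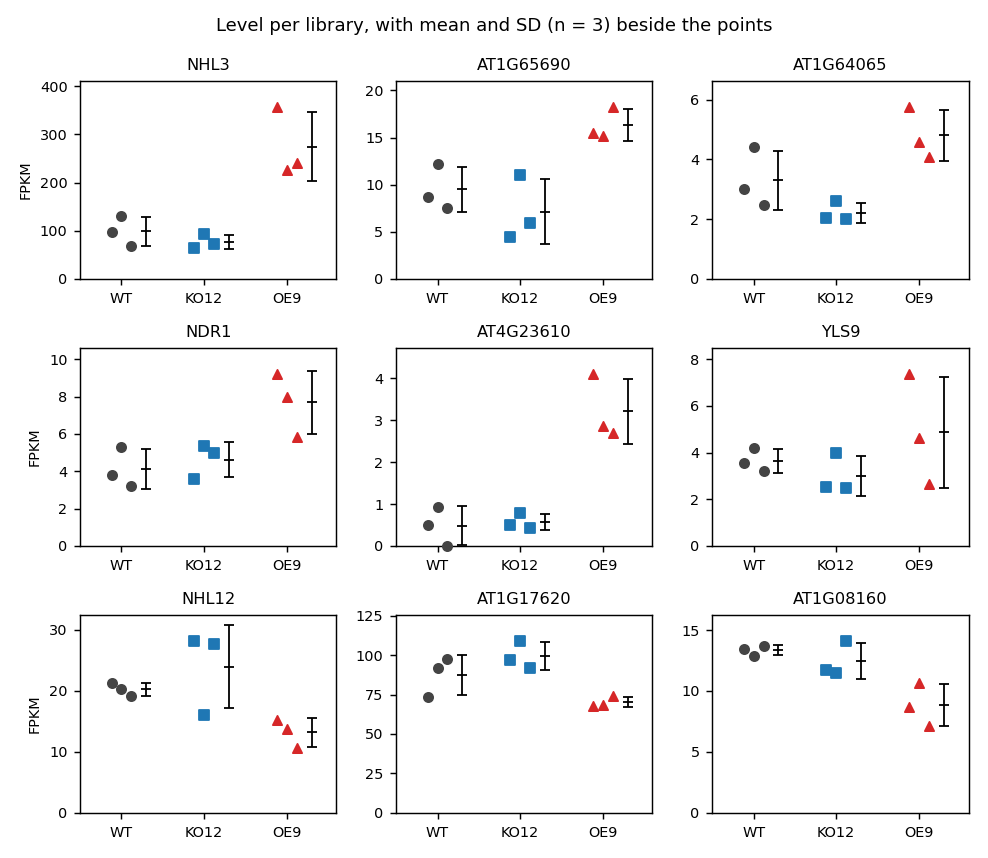
FPKM per library of 9 members, with the mean and SD (n = 3) beside the points of WT, VQ28KO12 (KO12) and VQ28OE9 (OE9). The VQ28OE9 triangles lie above every WT point for NHL3, AT1G65690, NDR1 and AT4G23610, below every WT point for NHL12 and AT1G08160, and overlap WT for YLS9.

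Among the most abundant members, AT3G52470 had 139 ± 11.1 FPKM in VQ28OE9 and 129 ± 40.1 in WT, and NHL1 at 104 ± 9.57 against 111 ± 23.3. Both differences were smaller than the WT spread. AT3G54200 stood at 38.2 ± 1.21 FPKM against 32.3 ± 3.32, without overlap, at a fitted log2 difference of 0.22 (edgeR adjusted p = 0.426).

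AT2G27080, whose deposited terms name defence against bacteria, differed more within genotypes than between them. It stood at 0.376, 22.5 and 28.6 FPKM in WT, at 28.8, 19.6 and 0.454 in VQ28OE9, and at 22.7, 29.3 and 17.0 in the libraries labelled VQ28KO12. The low values were 35 units in WT 1 and 46 in VQ28OE9 3, against 1960 to 2655 in the other libraries of those genotypes. AT2G27090, which overlaps it by 69 bases on the opposite strand, had 864 to 1376 units in all 9 libraries. A library over 20-fold below both others of its genotype, where those had at least 10 FPKM, was found in 17 of the 7931 genes that could show one, and in 2 or more genotypes in 4 of them. The fitted differences of AT2G27080 had an SE of 1.24 and moved widely over the 19 alternatives. Against WT they ran from -0.85 to 1.05 in VQ28OE9 and from -0.22 to 1.74 in VQ28KO12, so its mean carries no comparison here.

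**Figure D3:**
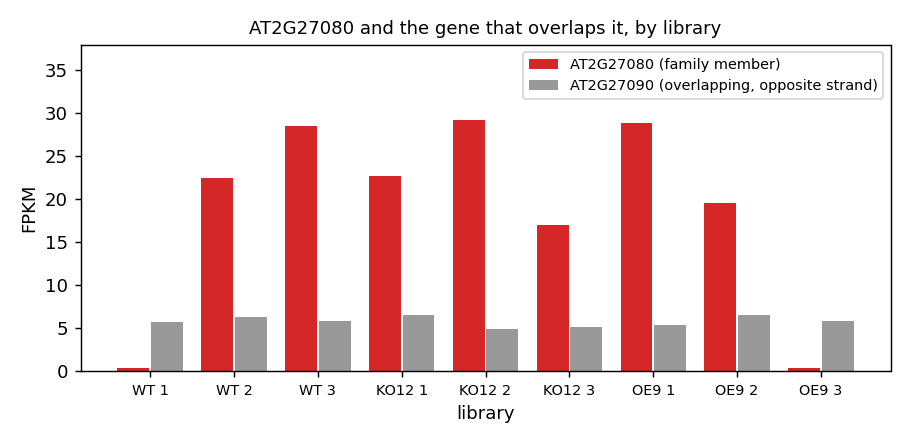
FPKM of AT2G27080 and of the overlapping gene AT2G27090 in each of the 9 libraries (bars from 0; KO12 is VQ28KO12 and OE9 is VQ28OE9). AT2G27080 is near 0 in WT 1 and VQ28OE9 3 only, while AT2G27090 lies between 4.89 and 6.57 FPKM throughout.

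Between the libraries labelled VQ28KO12 and WT, no member changed by edgeR's test (0 of 24, against 0.00623% of all genes tested). DESeq2 called 0 members, against 0.243% of all genes, limma called 0, and 2 members, AT1G64065 and AT3G44380, had an unadjusted p under 0.05, against 5.03% of all genes. The median log2 difference was 0.12 against 0.00 over all genes, with a range of -0.62 to 0.47, and 14 of the 24 were above 0, against 50.3%. Libraries did not overlap in 2 members, both higher in VQ28KO12, against 8.00% of all genes higher and 2.76% lower. These were AT3G44380, at 13.4 ± 2.31 against 9.96 ± 0.247 FPKM, and AT3G54200, at 40.5 ± 4.12 against 32.3 ± 3.32. AT3G54200 and AT3G44380 were also above WT in VQ28OE9, a comparison that uses the same WT libraries. NHL3 stood at 63.8, 92.8 and 72.9 FPKM, within or just below the WT range of 69.2 to 130, and NDR1 at 3.57, 5.33 and 4.98.

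The comparison of the lines with each other held the most changes. In VQ28OE9 against the libraries labelled VQ28KO12, 3 of the 24 members changed, against 6.33% of all tested genes, and all 3 were higher in VQ28OE9, against 3.71% of all genes higher and 2.62% lower. DESeq2 called 6, against 12.2%, and 9 had an unadjusted p under 0.05, against 21.2%. Libraries did not overlap in 6 members that were higher and 5 that were lower, against 12.1% and 14.4%. Of the 24 members 13 had a fitted log2 difference above 0, against 49.0% of all genes, with a median of 0.05 against -0.01 and a range of -1.14 to 2.52. As 2 of the 3 VQ28KO12 libraries held VQ28 mRNA within or above the WT range, the direction is that between libraries so labelled.

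NHL3 rose by 1.87 ± 0.26 on the log2 scale, from 76.5 ± 14.8 to 275 ± 71.6 FPKM (SD, n = 3; edgeR adjusted p = 0.00837), and passed under all 19 alternatives, with adjusted p from 5.69e-10 to 0.0425. AT1G64065 (chromosome 1, 23778353 to 23779529, plus strand), an LEA hydroxyproline-rich member without a process term, stood at 5.76, 4.58 and 4.07 FPKM in VQ28OE9 and at 2.04, 2.60 and 2.00 in VQ28KO12. Its libraries did not overlap, and it rose by 1.14 ± 0.25 (edgeR adjusted p = 0.0296). WT lay between the lines at 3.02, 4.41 and 2.49 FPKM, overlapping both. The call was lost without VQ28KO12 1 (adjusted p = 0.110) or 3 (0.102), and without VQ28OE9 1 (0.104), 2 (0.0617) or 3 (0.0505).

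AT1G65690 (chromosome 1, 24431430 to 24432953, minus strand) stood at 15.5, 15.2 and 18.3 FPKM in VQ28OE9 and at 4.48, 11.0 and 5.95 in VQ28KO12. It rose by 1.22 ± 0.31 (edgeR adjusted p = 0.0480), close to the threshold. It passed in 10 of 19 alternatives, and was lost without VQ28KO12 1 (adjusted p = 0.130) or 3 (0.160), without VQ28OE9 1 (0.110), 2 (0.0884) or 3 (0.112), without WT 1 (0.0665) or 2 (0.0512), without WT 3 and VQ28OE9 3 together (0.0982), and with WT left out of the fit (0.0603). NDR1 did not overlap between the lines, at 7.68 ± 1.70 against 4.63 ± 0.929 FPKM, and did not pass (log2 difference 0.75 ± 0.26, edgeR adjusted p = 0.126).

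Of the remaining members, NHL12, lower in VQ28OE9, lay just outside the threshold. It stood at 15.3, 13.7 and 10.6 FPKM in VQ28OE9 and at 28.2, 16.1 and 27.6 in VQ28KO12, without overlap, with a log2 difference of -0.84 ± 0.22 (edgeR adjusted p = 0.0512). AT1G17620 stood at 67.9, 68.6 and 73.8 FPKM against 96.7, 109 and 91.9 (log2 difference -0.47 ± 0.13, edgeR adjusted p = 0.0690). Both genes passed in 5 of 19 alternatives. AT4G23610 had 32, 42 and 34 units in VQ28KO12, a log2 difference of 2.52 ± 0.82 that did not pass (edgeR adjusted p = 0.106) and passed in 6 of 18 alternatives. AT4G23930 had the lowest fitted value of the family, at -1.14, with 0.758 ± 0.427 against 1.76 ± 0.426 FPKM.

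**Figure D4:**
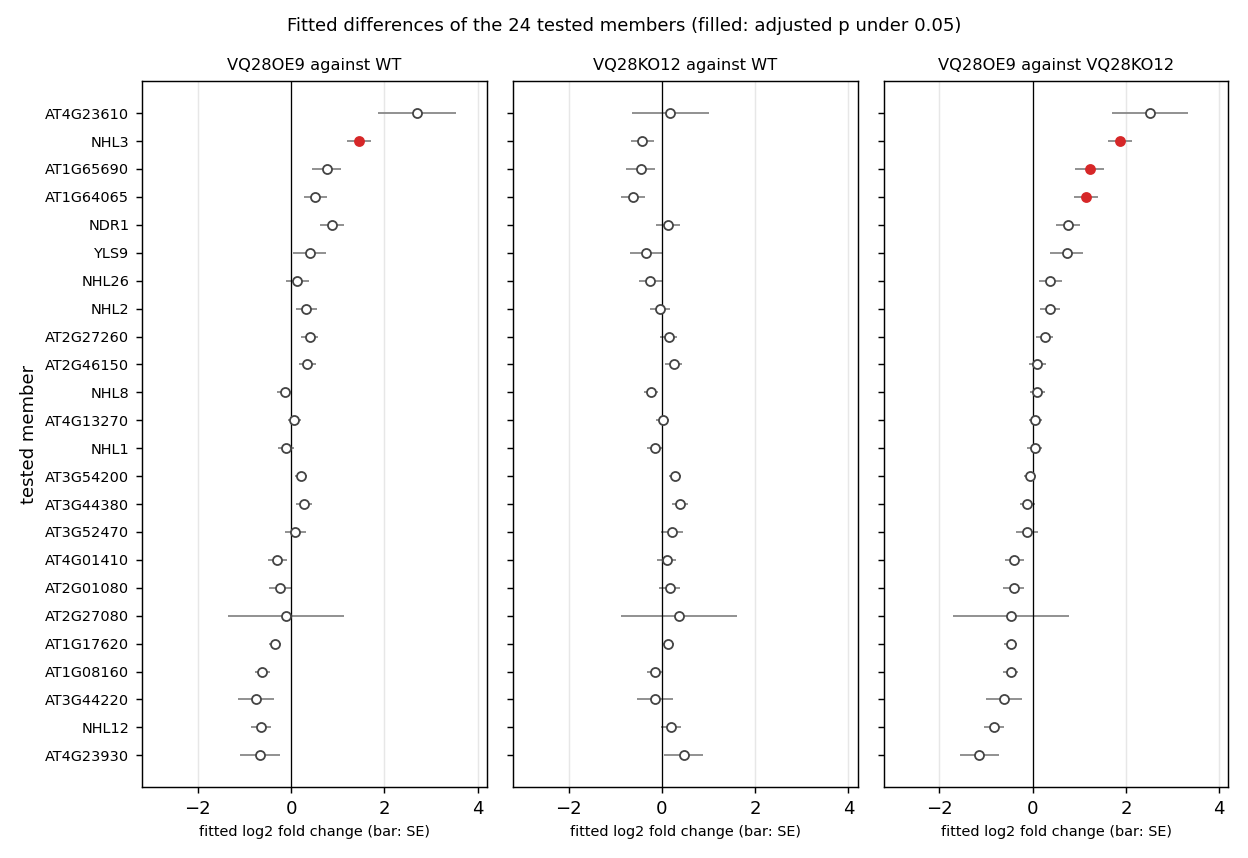
Fitted log2 fold change of the 24 tested members in the 3 comparisons, with bars of 1 SE; filled points have an adjusted p under 0.05. NHL3 is filled in VQ28OE9 against WT, no member is in VQ28KO12 against WT, and NHL3, AT1G65690 and AT1G64065 are in VQ28OE9 against VQ28KO12; the bar of AT2G27080 is the widest.

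A list of 20 immune genes, all tested, was read beside NDR1. It held genes of the NDR1 and RIN4 pathway, and also EDS1, PAD4, SAG101 and ADR1, which are not given here as partners of NDR1. In VQ28OE9 against WT 1 of the 20 was higher and 0 were lower, against 1.37% and 0.935% of all tested genes, with a median log2 difference of 0.09. The gene was PAD4, a lipase-like partner of EDS1, which rose by 1.12 ± 0.22 to 14.9 ± 2.33 from 6.82 ± 1.76 FPKM (edgeR adjusted p = 0.0353). No gene of the list changed between VQ28KO12 and WT, where the median was -0.04. Between the lines 2 of the 20 were higher in VQ28OE9 and 0 lower, against 3.71% and 2.62% of all genes, with a median of 0.10. These were PAD4 (1.16 ± 0.22, edgeR adjusted p = 0.0189) and RPS2, the NDR1-dependent receptor that guards RIN4, which rose by 1.66 ± 0.27 to 9.27 ± 2.10 from 2.98 ± 0.454 FPKM (edgeR adjusted p = 0.0127). RIN4 itself stood at 28.3 ± 2.37 FPKM in VQ28OE9, 26.9 ± 0.759 in VQ28KO12 and 26.1 ± 4.59 in WT, and did not pass the test in any comparison. The count against WT ran from 0 to 3 over the alternatives and was 0 without any 1 of VQ28KO12 1 or 3, WT 2 or 3, or the 3 VQ28OE9 libraries. The count between the lines ran from 0 to 4, with 0 without VQ28KO12 3 and 1 without VQ28KO12 1 or VQ28OE9 1.

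Other measures moved beside NHL3. Of 14 tested genes of a list of rapid touch, wound and cold response, 1 was higher in VQ28OE9 than in WT, against 1.37% of all genes. It was SZF1, a zinc finger gene (log2 difference 1.55 ± 0.28, edgeR adjusted p = 0.0271). All 14 had a fitted difference above 0, against 49.6% of all genes, with a median of 0.80. The list was chosen with earlier results of these data known, so this count is not an independent result. The list's summed level was 1163 to 1795 FPKM in VQ28OE9, 600 to 1139 in WT and 661 to 1159 in VQ28KO12. Its largest part was TCH3, at 595 ± 154 FPKM in VQ28OE9, 443 ± 152 in WT and 408 ± 162 in VQ28KO12. TCH3 did not pass the test in any comparison, and the sum does not speak for each gene of the list. Between VQ28OE9 and VQ28KO12, 5 of the 14 were higher, TCH2, WRKY33, SZF1, SZF2 and CML37, against 3.71% of all genes. Over the alternatives the count against WT ran from 0 to 6 and was 0 without VQ28OE9 1, WT 1 or WT 3. The count between the lines ran from 0 to 7, with 0 without VQ28KO12 1 or 3, 1 without VQ28OE9 1 and 3 without VQ28OE9 3. Guard cell markers summed to 23.2 to 27.0 FPKM in VQ28OE9, 15.2 to 18.2 in WT and 17.9 to 25.5 in VQ28KO12. Against WT 2 of 5 were higher in VQ28OE9, the kinase gene HT1 and the transcription factor gene FAMA, against 1.37% of all genes. KAT1 of the same list had a fitted log2 difference of -0.23 against WT and did not pass (edgeR adjusted p = 0.736). Between the lines 0 of 5 changed. Epidermis markers summed to 9.71 to 13.3 FPKM in VQ28OE9, 16.3 to 19.7 in WT and 22.3 to 25.9 in VQ28KO12. Of the 2 tested, 1 was lower in VQ28OE9 against both, the epidermal regulator ATML1. Of all genes 0.935% were lower against WT and 2.62% against VQ28KO12. PDF1 of this list, not tested, went the other way, at 0.327 ± 0.103 FPKM in VQ28OE9 and 0.0899 ± 0.0912 in WT. No mesophyll or vascular marker changed, and neither did the 1 dividing-cell marker tested of 3. The part of these in the NHL3 difference was not tested, and in whole leaves fewer cells of a type and less RNA per cell cannot be told apart.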

How the data were processed

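Libraries of poly(A) RNA marked strand with dUTP and were read from both ends, per the labels' protocols. The authors deposited 1 table with FPKM and whole-number values per gene and library, per the file headers. No source used here gives the aligner, counter, genome build or use of strand. The deposited whole numbers were treated as estimated counts, called units: multiples of 4 make up 48.7% to 57.0% of the values up to 16 (25% by chance). An FPKM at 0 units was set to 0.

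edgeR 4.0.16 (R 4.3.3; TMM, quasi-likelihood) was fitted to the units of all 9 libraries with 1 mean per genotype, for the 16050 genes averaging 1 FPKM or more. Changed means a Benjamini-Hochberg adjusted p under 0.05, two-sided. The SE is the log2 fold change over the square root of F. Alternatives were DESeq2 1.42.0, limma 3.58.1 on log2(FPKM + 1) or log2(FPKM + 0.1), DESeq2 size factors, other filters, units divided by 4, fewer libraries and a replicate block. Only the edgeR step was tested on simulated counts, drawn with the spread that edgeR itself fitted. Such counts cannot check the assumed units per fragment or effects of single libraries.

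Genes named were NDR1, NHL3, changed members, the 5 most abundant in WT and, in each comparison, the 3 largest rises and falls among tested members with a mean FPKM of at least 5; others are named for single counts or after their values were seen. The members and lists were chosen with earlier results of these data known. Annotation and sequence are RefSeq TAIR10.1, matched by locus tag for all 43 members.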

Additional observations from a re-analysis of the deposited data

How the results depend on the processing

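In VQ28OE9 against WT, 1 member changed, NHL3. DESeq2 called 4 members and limma on log2(FPKM + 1) called 2. With only the compared libraries in the fit, and with WT 3 and VQ28OE9 3 both left out (chosen after seeing the data), the count was 0, and with single libraries left out it was 0 to 1. Between VQ28KO12 and WT the count was 0 under all 19 alternatives. In VQ28OE9 against VQ28KO12, 3 members changed. DESeq2 called 6, limma on log2(FPKM + 1) called 5 and units divided by 4 gave 5, and with single libraries left out the count was 1 to 4. The cause of these differences was not tested. No called value changed direction under any alternative run. Same-numbered libraries did not vary together in every pair (correlations of -0.199 to 0.309), and 3, 5 and 0 of 6 libraries were closest to their own number in the 3 comparisons. With a replicate block the counts were 1, 0 and 3. Groups of 3 libraries limit what can be called, and members under about 12 units in a library are not resolved at this depth.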
